A study of Mus musculus with 2 samples.

Results

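The 10 genes described here encode hormones and defining products of enteroendocrine cells: Sct, Cck, Gip, Ghrl, Sst, Gcg, Pyy, Nts, Tph1 and Chga. They were chosen by symbol. All 10 were found on the array, each through 1 probe set (a group of short probes read together as 1 value) annotated to that symbol alone, among 18194 genes named in the same way. The samples were 2 pools of RNA from the proximal part of the intestine, defined as the upper 1/3 of the gut, of chow-fed C57BL/6 mice, with 1 Affymetrix expression array per pool. The WT pool held RNA of 3 wild-type animals. The CD36KO pool held RNA of 3 animals with a germline deletion of Cd36, which is not limited to 1 cell type, so an effect in enteroendocrine cells cannot be told apart from one that began in another cell. The sources used here give neither age nor sex.

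Enteroendocrine cells are scattered single cells of the gut epithelium that sense the luminal content and release peptides or serotonin from granules. Their products change along the gut: secretin, cholecystokinin and GIP come mostly from the duodenum and jejunum, while proglucagon, peptide YY and neurotensin increase towards the ileum and, for the first pair, the colon. CD36, a receptor that takes up fatty acids at the cell surface, has been linked to the release of secretin and cholecystokinin after fat. The deposited values are messenger RNA signals of whole tissue and do not measure release.

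Every value is the deposited log2 signal of a pool, so a difference of 1 corresponds to a change by 2-fold. With 1 array per genotype (n = 1) there was no replicate error, and no test was possible; each difference below compares these 2 arrays, and whether it exceeds the variation between animals or arrays is unknown. The term "at least 1.5-fold" stands for a difference of 0.58 or more. A gene counted as expressed where the higher of its values reached 4.51, a filter set at the median of this maximum over the whole array. This held for 11981 genes and for 10 of 10 hormone genes, each of which was above that level in both pools. Levels of different genes come from different probes and are not compared with each other.

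The promoters of 5 of the genes are shown for reference, and no expression difference below rests on these sequences. The 5 are the 3 distal hormones that were higher in the CD36KO pool, and the pair tied to CD36 by its role in hormone release. Each line holds the 250 bases before the annotated transcription start, 5' to 3' on the strand of the gene, from RefSeq on GRCm38.p6. All 10 genes had an entry, and of several starts the furthest upstream was taken. For Sct, Gip and Sst the start used lay inside the listed span of the gene, so their windows overlap that span. Distances given for them hold for that start only. All 5 genes lie on the minus strand. Capitals mark matches on either strand to TATAAA (the TATA box), CATCTG (a form of E-box bound by NEUROD1, a factor of the enteroendocrine lineage) or AGATAA (bound by GATA factors). The windows are chr2:62483654-62483903 for Gcg, chr11:102107833-102108082 for Pyy, chr10:102490419-102490668 for Nts, chr9:121495695-121495944 for Cck and chr7:141279134-141279383 for Sct.
Gcg: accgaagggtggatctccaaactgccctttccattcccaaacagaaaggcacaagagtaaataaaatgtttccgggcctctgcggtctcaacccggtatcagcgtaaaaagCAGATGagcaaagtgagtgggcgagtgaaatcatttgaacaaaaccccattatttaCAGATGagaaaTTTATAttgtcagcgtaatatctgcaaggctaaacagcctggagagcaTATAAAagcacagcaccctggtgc
Pyy: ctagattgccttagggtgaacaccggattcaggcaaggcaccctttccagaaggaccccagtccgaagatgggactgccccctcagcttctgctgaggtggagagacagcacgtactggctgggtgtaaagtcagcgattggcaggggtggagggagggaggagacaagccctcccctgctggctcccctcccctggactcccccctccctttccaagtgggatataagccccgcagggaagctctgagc
Nts: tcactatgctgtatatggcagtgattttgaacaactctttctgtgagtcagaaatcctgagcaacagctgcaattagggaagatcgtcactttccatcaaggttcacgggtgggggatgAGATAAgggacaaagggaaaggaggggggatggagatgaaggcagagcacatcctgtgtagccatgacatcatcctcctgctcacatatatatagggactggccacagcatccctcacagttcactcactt
Cck: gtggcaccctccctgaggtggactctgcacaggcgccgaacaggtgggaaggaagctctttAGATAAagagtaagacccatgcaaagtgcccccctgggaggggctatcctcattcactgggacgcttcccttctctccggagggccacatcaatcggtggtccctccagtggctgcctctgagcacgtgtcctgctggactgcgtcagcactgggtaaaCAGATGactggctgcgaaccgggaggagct
Sct: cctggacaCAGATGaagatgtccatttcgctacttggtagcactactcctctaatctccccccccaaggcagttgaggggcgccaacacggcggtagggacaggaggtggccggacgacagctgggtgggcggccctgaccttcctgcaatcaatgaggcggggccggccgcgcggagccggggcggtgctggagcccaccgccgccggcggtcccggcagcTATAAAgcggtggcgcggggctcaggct

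No motif searched was shared by the 3 distal promoters other than the general E-box CANNTG, which contains CATCTG and was found in 9 of 10 hormone promoters and in 66.2% of all 32817 promoter windows of this length. Gcg held CATCTG at 2 places, starting 139 and 83 bases before the start, and TATAAA at 2 places, 72 and 24 bases before it. CATCTG was also present 30 bases before the start of Cck and 242 bases before that of Sct; 14.5% of all windows hold it. AGATAA lay 131 bases before the start of Nts, 189 bases before that of Cck and at 2 places in the promoter of Gip, and 9.99% of all windows hold it. Sct had TATAAA 28 bases before its start, a motif of 12.4% of all windows. TGACGTCA, the cAMP response element, was found in 1 of the 10 promoters, that of Sst, 48 bases before the start, and in 1.55% of all windows. TTTATG, the only form of a CDX-type site that was searched, was found in 0 of 10 and in 10.8% of all windows. These are matches of letters in a short window and not measured binding sites.

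The distal and the proximal hormone genes differed in opposite directions between the pools. The 3 distal genes Pyy, Gcg and Nts were 1.93-fold to 2.93-fold higher in CD36KO, with a median difference of 1.05. The 5 genes grouped as proximal, an assignment not measured in these pools, were Cck, Ghrl, Gip, Sct and Sst. They were 1.22-fold to 1.48-fold lower, with a median of -0.54. Tph1 and Chga, which mark enteroendocrine cells along the whole length, were lower by less than any of these. Over all genes above the filter the median difference was -0.0059. In whole tissue, fewer cells of a type and less RNA per cell cannot be told apart.

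Read against the background, 3 of 10 hormone genes were at least 1.5-fold higher, and 5.31% of the 11981 genes were. At least 2-fold higher were Pyy and Gcg, against 1.61% of all genes. None of the 10 was at least 1.5-fold lower, as 3.31% of all genes were. The count below 0 was 7 of 10, against 50.9% of all genes, and the 7 comprised every hormone gene outside the distal group. The median of the 10 was -0.25 and their mean 0.09, which differ in sign, the 3 positive differences being the largest in size.

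**Figure D1:**
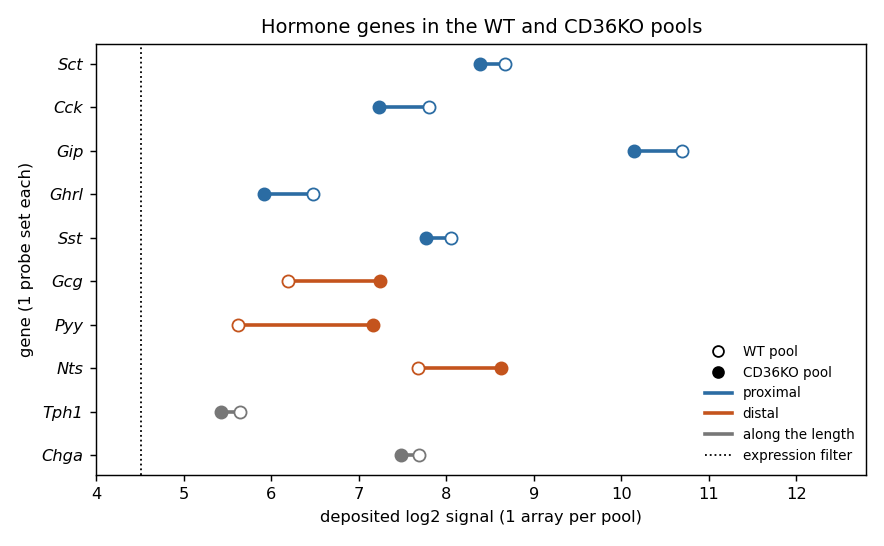
Deposited log2 signal (horizontal axis) of each hormone gene (vertical axis, 1 probe set each) in the WT pool (open circle) and the CD36KO pool (filled circle), n = 1 array per pool, with no error bars; colours mark the region group and the dotted line the expression filter of 4.51. The 3 distal genes lie to the right of their WT value and the other 7 to the left; positions of different genes along the axis are not comparable.

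Among the distal hormones, Pyy differed most. It encodes peptide YY, a product of L cells that slows gastric emptying and intestinal transit and lowers food intake. Its signal was 5.62 in WT and 7.17 in CD36KO, a 2.93-fold higher value. Of all genes above the filter 78, or 0.651%, had a difference as high as this, Pyy included.

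Gcg encodes proglucagon, which L cells cut into GLP-1, an incretin, and GLP-2, a growth factor of the mucosa, and which alpha cells of the pancreas cut into glucagon. Gcg read 6.19 in WT and 7.24 in CD36KO, 2.07-fold higher, and 179 genes (1.49%) differed by as much in this direction. Pyy and Gcg, which L cells make together, thus lay on the same side, with differences of 1.55 and 1.05.

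Nts encodes neurotensin, a peptide of the distal small intestine that is released by fat and favours fat absorption. It read 7.68 in WT and 8.63 in CD36KO, 1.93-fold higher, with 214 genes (1.79%) as high. Its WT value was 3.17 above the expression filter, that of Gcg 1.68 and that of Pyy 1.11, so none of the 3 folds starts from a level below it.

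Secretin and cholecystokinin, the hormones whose release has been linked to CD36, both had lower messenger RNA signal in the CD36KO pool. Cck, made by I cells, drives gallbladder contraction and pancreatic enzyme secretion. It read 7.80 in WT and 7.23 in CD36KO, 1.48-fold lower, the lowest difference of the 10 at -0.57; 427 genes (3.56%) differed by as much in this direction. Sct, made by S cells, raises bicarbonate secretion from the pancreas. It read 8.67 in WT and 8.38 in CD36KO, 1.22-fold lower, and 1846 genes (15.4%) were as low or lower.

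Gip and Ghrl differed by nearly as much as Cck. Gip, the incretin of K cells, read 10.69 in WT and 10.15 in CD36KO, 1.46-fold lower, with 479 genes as low. Ghrl, which encodes the appetite-stimulating peptide ghrelin of the stomach and upper intestine, read 6.48 in WT and 5.92 in CD36KO, 1.47-fold lower, with 457 genes as low. Both lay just within 1.5-fold. Under quantile normalization Ghrl passed it, at -0.59.

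Sst encodes somatostatin, the D cell peptide that inhibits the release of most gut hormones. It read 8.06 in WT and 7.77 in CD36KO, 1.22-fold lower, the same fold to 3 digits as Sct, and 1863 genes (15.5%) were as low. The proximal group was therefore split, with Cck, Ghrl and Gip between -0.57 and -0.54, and Sct and Sst both at -0.29.

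Chga and Tph1, which were assigned to neither region, differed least. Chga encodes chromogranin A, a granule protein of most enteroendocrine cells, and read 7.69 in WT and 7.49 in CD36KO, 1.15-fold lower. Tph1 encodes the enzyme that commits tryptophan to serotonin in enterochromaffin cells, and read 5.65 in WT and 5.43 in CD36KO, 1.16-fold lower. Of all genes, 23.5% were as low as Chga and 21.7% as low as Tph1.

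Set against Chga as a measure of enteroendocrine RNA, the distal genes stood further out and the proximal ones closer in. This reading depends on the marker taken. Of other enteroendocrine markers above the filter, Chgb was at -0.46, lower than Chga, while Scg2 and Pcsk1 were both at 0.19. Against the last pair the proximal genes would stand further out, and against Chgb they would not. Relative to the difference of Chga, Pyy was higher by 1.75, Gcg by 1.25 and Nts by 1.15. Cck was at -0.37, Ghrl at -0.35, Gip at -0.34, Sct at -0.08, Sst at -0.08 and Tph1 at -0.01. Sct, Sst and Tph1 thus differed between the pools by nearly the amount that Chga did. The gap between a distal and a proximal gene ran from 1.24 for Nts against Sst to 2.12 for Pyy against Cck, and the medians of the groups lay 1.59 apart; these restate the differences above.

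**Figure D2:**
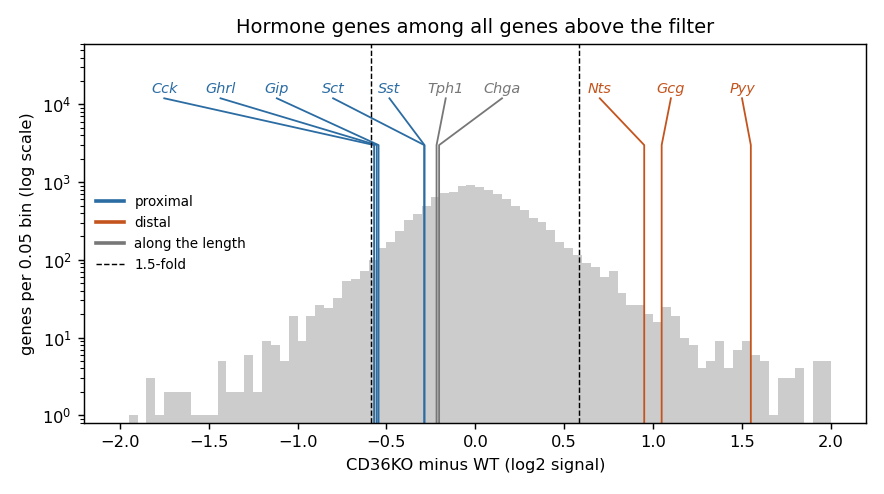
Number of genes (vertical axis, log scale) in bins of 0.05 of the CD36KO minus WT difference in log2 signal (horizontal axis) for the genes above the filter, with 48 genes beyond -2 or 2 not drawn; coloured lines give the position of each hormone gene and dashed lines 1.5-fold. The distal genes lie beyond the upper dashed line, Cck, Ghrl and Gip just inside the lower one, and Sct, Sst, Tph1 and Chga between it and 0.

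The opposite signs of the hormone groups ran alongside those of other genes with a regional pattern in the same pools. The lists of these genes were chosen with earlier results of these data known, so they are no independent check. Of 10 genes of the distal small intestine on the array, 7 were above the filter in both pools. Their median difference was 1.93, and 6 passed 1.5-fold, each of them higher in CD36KO. That median is the value of Osr2, which is among the 6 and had another probe set at -0.14. Fgf15 and Slc10a2 passed the filter through the CD36KO pool alone; with them the median was 2.08. Fabp6, the ileal bile acid binding protein, read 6.25 in WT and 12.92 in CD36KO, and Fgf15, the ileal hormone that restrains bile acid synthesis, read 3.47, below the filter, and 7.58. Tmigd1 was at 3.56 and Guca2a, the precursor of guanylin, at 2.08, both above the filter in both pools. Slc10a2, the ileal bile acid transporter, read 2.50 and 4.58. The 13 proximal genes had a median of -0.52, close to the -0.54 of the proximal hormones, and 6 of them passed 1.5-fold, each lower in CD36KO. Pdx1, a duodenal factor, read 8.35 in WT and 7.09 in CD36KO, but a second probe set was level at -0.00042. Trpv6, Slc40a1 and Onecut2 were at -1.16, -1.10 and -1.03, and their other probe sets, where they had any, were lower too. The part of this regional pattern in the hormone differences was not tested.

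Cells other than enteroendocrine cells make some of the same products, and their markers were read in the same pools. Pancreatic islets make Gcg, Sst and some Pyy and Ghrl. Of 9 islet markers on the array 6 were below the filter in both pools; Ppy, the pancreatic polypeptide, read 3.82 and 3.70, Ins2 read 5.45 in WT and 5.90 in CD36KO, Iapp 4.94 and 4.43, and Slc2a2, which enterocytes express too, 11.30 and 10.60. The summed linear signal of the islet list was 2657 in WT and 1689 in CD36KO. Slc2a2 gave most of each sum, so the sums say little about the other islet markers. The acinar pancreas list had 12 of 12 expressed members at least 1.5-fold higher, and its summed signal was 8229 in WT and 28924 in CD36KO. The part of pancreatic tissue in the difference of Gcg was not tested.

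The stomach makes Ghrl and Sst. Of 7 expressed gastric markers 3 passed 1.5-fold upwards (Gkn1, Gkn2 and Tff1, at 3.73, 3.63 and 2.19) and 2 downwards (Gkn3 at -0.76 and Tff2 at -0.70). The summed signals were 8273 in WT and 8600 in CD36KO. Tff2 and Gkn3 gave most of each sum, so the sums say little about the other markers. Gast (gastrin) and Atp4a, the proton pump of the acid-secreting cell, were below the filter in both pools. Atp4b, the other subunit of that pump, read 5.81 and 5.94. Enteric neurons make Sst, Cck and Nts. Their list had 1 of 9 expressed members at least 1.5-fold higher, Gal (1.05), and a median of 0.30, and its summed signal was 690 in WT and 876 in CD36KO. Mast cells make Tph1. Of 5 expressed mast cell markers 3 were at least 1.5-fold higher (Mcpt1 1.95 from a WT value below the filter, Mcpt2 1.04 and Kit 0.81, the last with another probe set at -0.01), 7 of 12 were below the filter in both pools, and the summed signal was 230 in WT and 335 in CD36KO, while Tph1 was lower. The part of these cells in the hormone differences was not tested.

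Of 9 other peptide precursors of enteroendocrine cells on the array 5 were above the filter; 4 of these lay above 0 and 1 below, and their median was 0.29, against 0.08 over all 9. Nucb2, the precursor of nesfatin, was the 1 member past 1.5-fold, at 5.52 in WT and 6.39 in CD36KO. Iapp (amylin) was at -0.51, from 4.94 to a CD36KO value of 4.43 below the filter, with its 3 other probe sets from -0.29 to 0.18, Tac1, the precursor of substance P in enterochromaffin cells and neurons, at 0.33, and Penk (enkephalins) at 0.29. Insl5, a hormone of colonic L cells, was below the filter in both pools at 2.84 and 2.92.

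Granule proteins and prohormone processing genes differed in both directions. The median of the 11 expressed ones was 0.17; 2 passed 1.5-fold upwards and 1 downwards. Chgb, chromogranin B, read 9.79 in WT and 9.33 in CD36KO, a difference of -0.46 of the same sign as that of Chga. Vgf, a granule peptide precursor, was at -0.68. Resp18 was at 0.68, from a WT value of 4.46 just below the filter, and Ptprn2, a granule membrane protein, at 0.67, with another probe set at 0.07. Pcsk1, the convertase that cuts proglucagon to GLP-1, read 5.19 and 5.37; its difference of 0.19 was smaller than the 1.05 of its substrate Gcg.

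Transcription factors of the enteroendocrine lineage had a median of -0.01 over 8 expressed members, with 1 past 1.5-fold upwards and 2 downwards; over the alternatives the median ranged from -0.05 to 0.38, so it has no settled sign. Neurog3, which starts the lineage, read 5.88 in WT and 5.18 in CD36KO, but its second probe set differed by only -0.05. Pdx1, also in the proximal list above, was at -1.26. Foxa1, which acts with Foxa2 in the differentiation of L and D cells, read 6.42 in WT and 7.53 in CD36KO, 2.15-fold higher, while Foxa2 read 6.01 and 5.96. Sox4 was at 0.38, with the lowest of its 7 other probe sets at -0.36. Neurod1, Insm1, Nkx2-2 and Isl1 were below the filter in both pools.

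Genes that act with Tph1 on serotonin were listed together with the channels Trpa1 and Piezo2. This list had a median of -0.20 over 7 expressed members. The median became -0.07 with the 75th percentile filter and -0.04 with the least differing probe set of each gene. Tph1 itself was at -0.22. Ddc, the decarboxylase that completes serotonin synthesis and is also abundant in enterocytes, read 11.42 in WT and 10.53 in CD36KO and was the 1 member past 1.5-fold, with a second probe set at -0.10. Piezo2, a touch channel of enterochromaffin cells, was at -0.30, Trpa1, an irritant channel, at -0.21, and Maoa, which breaks serotonin down, at -0.20.

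The receptors and transporters through which enteroendocrine cells read nutrients were mostly within 1.5-fold. The 10 expressed ones had a median of 0.02, which became -0.09 with the 75th percentile filter, and 1 passed 1.5-fold in each direction. The lower one was the deleted gene, Cd36, which read 7.68 in WT and 6.02 in CD36KO and was lower at its other probe sets too. The higher one was Ffar4, a receptor for long-chain fatty acids, at 4.21 in WT, below the filter, and 5.29 in CD36KO. Casr, the calcium-sensing receptor that also reads amino acids, was at 0.37. Tas1r3, a taste receptor subunit, was at -0.35, from 4.65 in WT to a CD36KO value of 4.30 below the filter. Ffar1, Gpr119 and Gpbar1, which couple lipids and bile acids to hormone release, had no probe set matched here and were not analysed.

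Receptors of these hormones were largely below the filter, 16 of 21. None of the 5 expressed ones passed 1.5-fold: Sstr4 (somatostatin) was at -0.47, Cckbr (cholecystokinin and gastrin) at 0.43, Htr3a (serotonin) at -0.12 and Htr2b (serotonin) at 0.05. Of the peptidases that trim gut hormones, 1 of 9 was at least 1.5-fold higher, Mep1a, a meprin of the brush border, which read 8.64 in WT and 10.70 in CD36KO and also passed 1.5-fold at its other probe set. Mme (neprilysin) was at -0.56, Tpp2 at 0.35 (-0.14 at another probe set) and Dpp4, which inactivates GLP-1 and GIP, at 0.34. Mboat4, which acylates ghrelin, was below the filter in both pools.

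**Figure D3:**
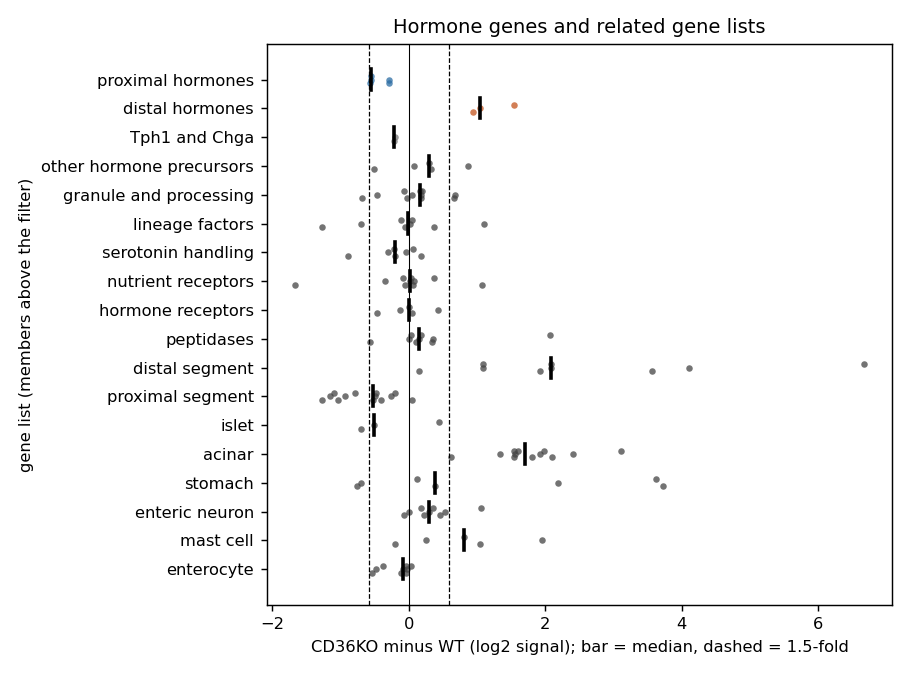
CD36KO minus WT difference in log2 signal (horizontal axis) for each gene above the filter in the hormone groups and the related lists (vertical axis); points are genes, bars medians, dashed lines 1.5-fold, n = 1 array per pool. The distal hormones (median 1.05) share their side of 0 with the distal segment genes (2.08, or 1.93 over those above the filter in both pools), and the proximal hormones (-0.54) with the proximal segment genes (-0.52). The lists were chosen with earlier results of these data known.

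As a check of the tissue, all 9 absorptive enterocyte markers on the array were above the filter in both pools and within 1.5-fold. Their median was -0.09 and 8 of the 9 lay below 0, from Vil1 at -0.03 to Treh at -0.54 and Lct at -0.48, the last 2 about as low as the proximal hormones. Cd36 was 3.56-fold and 3.17-fold lower at 2 probe sets, which still read 5.87 and 6.02 in the CD36KO pool, above the filter; the third read 4.74 in WT and 3.52, below the filter, in CD36KO. The sources used here do not say whether the probe sets lie in the deleted part, and the labels are checked only if they do. RNA coverage differed between the pools: the 3' minus 5' signal of the beta-actin control was 2.28 for the WT pool and 1.34 for the CD36KO pool, and for GAPDH the pair was 1.28 and 0.71. The part of this in the hormone differences was not tested.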

How the data were processed

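The authors deposited 1 table of 45101 probe sets by 2 arrays on a log2 scale; both arrays have a median of 4.38, and how they were summarized and normalized is not stated in the sources used here. The scale was read from the range of the values, which reach 14.2. The table gives no detection calls, so low signal and background cannot be separated.

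Probe sets were named from the platform annotation; 34958 carry 1 symbol, 932 carry several and 9211 carry none, and only the first were used. For each gene the probe set with the highest mean was taken, and the CD36KO minus WT difference was computed without further normalization or test. The 10 hormone genes and the 15 gene lists were chosen with earlier results of these data known. Named are the hormone genes, Cd36, and up to 4 genes of largest absolute difference above the filter in each list, plus defining markers and related genes chosen after their values were seen. Alternatives were median centring, quantile normalization, a lowess trend (fraction 0.3), other probe set rules, a 2-fold threshold, and the filter either dropped or moved to the 75th percentile; a reading relative to Chga was added after seeing the data. The procedure was run on simulated arrays with shifts larger than any hormone difference. That run checks the computation and does not gauge differences of the size seen here. The software was NumPy 2.4.6, pandas 2.3.3, matplotlib 3.10.9 and statsmodels 0.14.6 under Python 3.11.15.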

Additional observations from a re-analysis of the deposited data

How the results depend on the processing

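The distal median stayed between 1.02 and 1.25, the proximal median between -0.58 and -0.34 and the gap between them between 1.46 and 1.60 under the alternatives run for each. All 10 hormone genes kept their sign under the 3 scalings, and the other 9 did so relative to Chga. The count at least 1.5-fold lower was 0 and became 1 under quantile normalization, through Ghrl; Cck stayed within 1.5-fold under each setting. The count at least 1.5-fold higher was 3, and 2 at the 2-fold threshold, which Nts does not reach. The filter at the 75th percentile kept 8 of the 10 genes and leaves out Ghrl and Tph1; Gcg and Pyy pass it through the CD36KO pool alone, so the distal median there is no independent check. As each hormone gene has 1 probe set, the other probe set rules changed no value. No replicate could be left out, and no paired analysis was possible because each genotype has 1 array. The number of arrays and the unknown background limit what can be read from any difference.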
